A study of Mus musculus with 14 samples.

Results

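Collagens are the structural proteins of the extracellular matrix, and the 44 collagen genes described here are all gene symbols of the form Col, number, a, number that occur in both deposited tables, out of 51211 symbols that the tables share. They were grouped by the structures their products build. The fibrillar group held 7 genes, the cartilage group 8 and the basement membrane group 9. The remaining genes were 6 beaded filament chains of type VI, 6 fibril-associated collagens, 2 network-forming chains of type VIII, 4 transmembrane collagens and 2 others.

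Each collagen molecule is a triple helix of 3 chains, which can be copies of the same chain or products of different genes. Fibrillar collagens pack into the tension-bearing fibrils of connective tissue and bone, cartilage collagens build the finer fibrils of cartilage, and type IV collagen forms the sheet-like network of basement membranes. In the nose, the olfactory epithelium rests on a basement membrane above the lamina propria, a connective tissue that carries fibroblasts, vessels, glands and axon bundles and is attached to the bone and cartilage of the turbinates and septum. A dissected olfactory epithelium therefore usually carries some of this tissue with it.

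RNA was measured in olfactory epithelia of mouse pups at postnatal day 5, in a pair of experiments that asked how silencing of olfactory sensory neurons (OSNs) and odor exposure during early postnatal development alter gene expression. In the Kir2.1 experiment, 3 mice carried OMP-IRES-tTA together with tetO-Kir2.1-IRES-tauLacZ, so that the inward rectifier potassium channel Kir2.1 was made from the Omp locus driver in mature OSNs, and were compared with 3 controls heterozygous for OMP-IRES-tTA alone. The records call the Kir2.1 mice Kir2.1-off although they were taken at day 5. In the PEA experiment, 4 wild-type pups had the odorant 2-phenylethylamine (PEA) around them without a break from birth to day 5. They were compared with 4 wild-type pups that did not. For early exposure, the paper places the odor vial in the home cage with mother and pups. Litter and cage of each pup are not known here, so their effects cannot be told apart from that of exposure. The tests treat the pups as independent. Each sample is called a mouse here. The records do not say whether tissue of several pups was pooled, but the paper's legend to its Kir2.1 heatmap gives a single mouse per column. The records give C57BL/6 as the strain of all 14 samples, whereas the methods of the study name CD-1 for the PEA pups.

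The deposited values are normalized counts per gene, so the depth of each library is unknown, and their totals per mouse, from 33049100 to 34198500 in the Kir2.1 experiment and from 11476100 to 12467300 in the PEA experiment, are what normalization left. The driver's own gene, Omp, was present in every mouse, at 31853 to 36226 in the Kir2.1 controls and 21062 to 23516 in the Kir2.1 mice. Collagen genes together made up 0.292% to 0.685% of all normalized counts in the Kir2.1 experiment and 0.412% to 0.543% in the PEA experiment. Some mice stood apart in ways that touch collagens. Kir2.1 control 3 had the highest value among the 3 controls for 32 of 42 collagen genes, and it also had the most of the bone matrix gene Ibsp, at 7346 against 2231 and 1711 in the other controls. PEA control 1 was highest of its group for 24 of 41 collagen genes and had 1765 of Ibsp against 345 to 493 in the other controls. How often these mice were highest over all genes was not counted, so the counts cannot be called particular to collagens. Ibsp was picked for this comparison after its values were seen. The summed osteoblast markers, which include Ibsp, were also highest of the controls in these mice, at 14702 and 3247. The osteoblast gene Sp7 did not follow. It was 283 in Kir2.1 control 3 against 233 and 577 in the other controls. In PEA control 1 it was 76.6 against 63.0 to 108. A mouse with more connective tissue or bone in the dissection and a mouse whose cells make more collagen RNA cannot be told apart in bulk tissue.

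Levels are compared between genes as normalized counts per kilobase of transcript. In the Kir2.1 experiment, the chains of type I collagen, the main collagen of bone, tendon and skin, came first. Col1a1 had 9912 and Col1a2 8349 normalized counts per kilobase of transcript, averaged over the 6 mice. Col3a1, which forms fibrils of soft tissue and vessel walls with type I, followed at 3395, and the type VI chain Col6a1 at 744 and the fibril-starting chain Col5a2 at 706. Among cartilage collagens the highest were Col9a2 at 550, Col11a1 at 364 and Col11a2 at 239, and among basement membrane collagens they were Col18a1, the source of endostatin, at 658, Col4a2 at 607 and Col4a1 at 507. In the PEA experiment the order was Col3a1 at 2046, Col1a2 at 1891, Col12a1, which coats fibrils, at 885, Col1a1 at 653 and Col5a2 at 462. The cartilage collagens were led there by Col11a1 at 300.5, Col10a1 at 143 and Col9a2 at 84.8, and the basement membrane collagens by Col4a1 at 243, Col4a2 at 137 and Col4a5 at 66.0. The experiments were normalized separately and used different libraries, poly-A selected with 40 bp reads for Kir2.1 and ribosomal-RNA-depleted with 150 bp reads for PEA, so these levels stand side by side only.

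**Figure D1:**
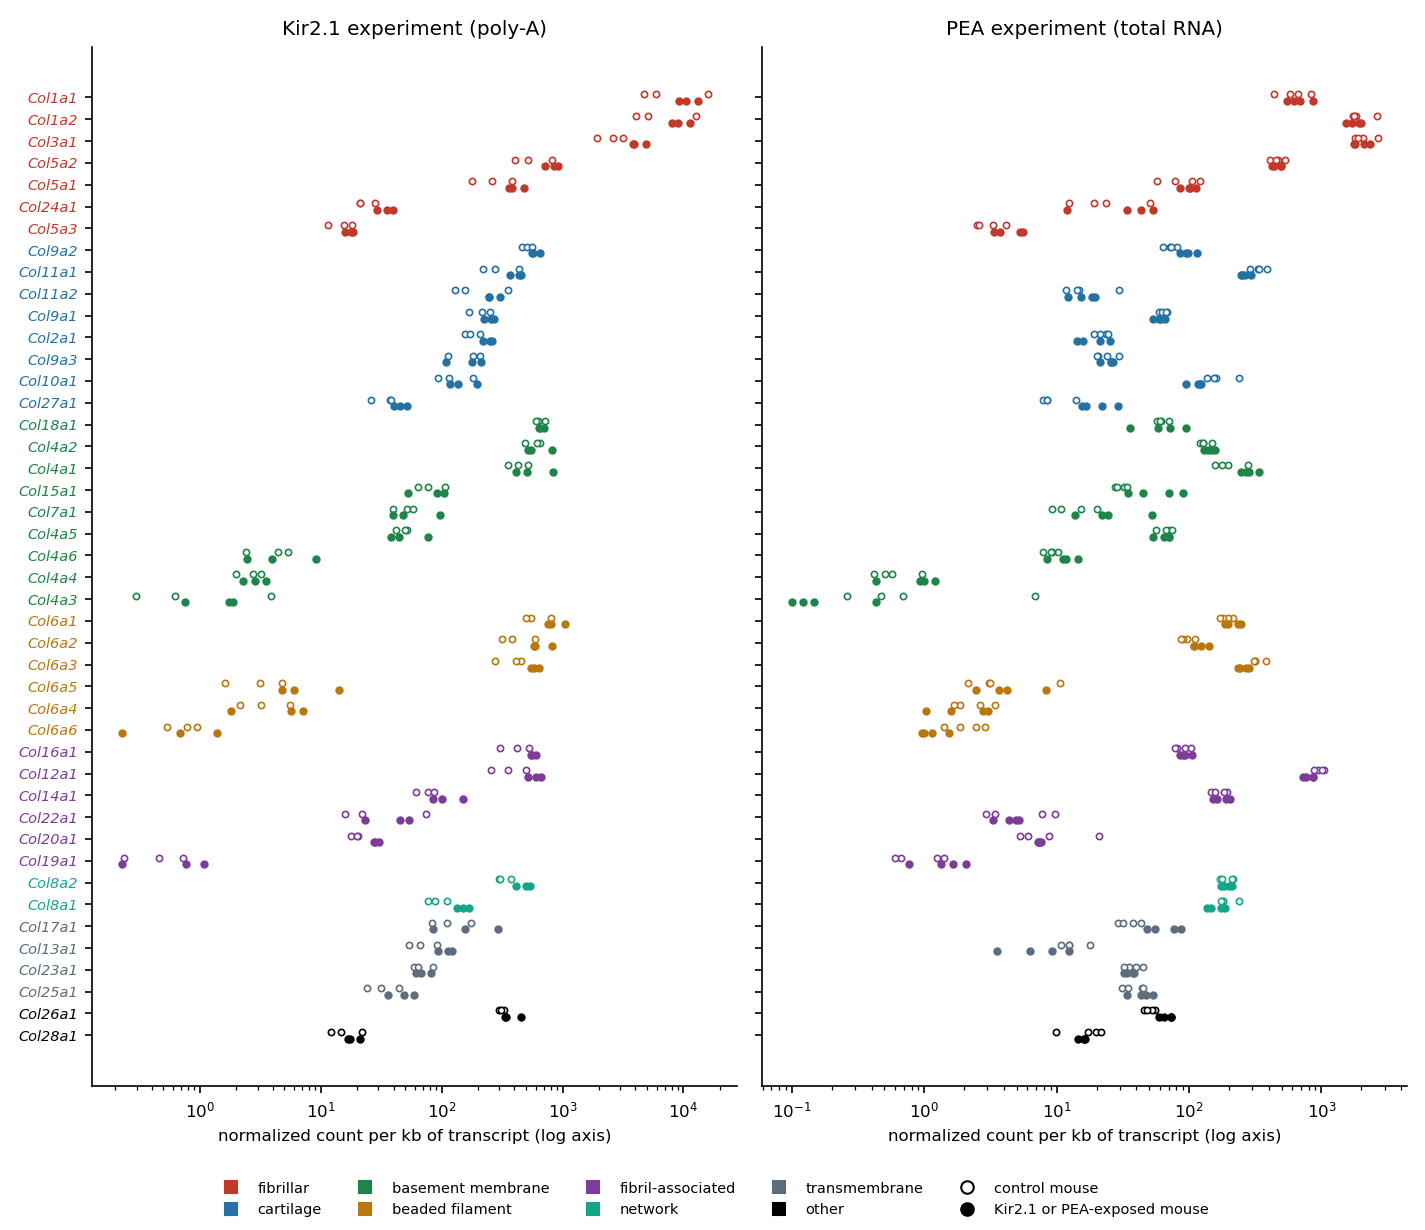
Normalized counts per kilobase of transcript (log axis) of the 44 collagen genes, with each point 1 mouse, open for controls and filled for Kir2.1 mice (left) or PEA-exposed mice (right), and colours for the groups of collagens. Genes are in rows ordered by group, and levels rise from left to right. Type I and type III chains lie far to the right in both panels. By mean level, Col19a1, Col6a6, Col4a3 and Col4a4 lie furthest to the left.

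At the low end, Col19a1 had 0.583 per kilobase in the Kir2.1 experiment and 1.22 in the PEA experiment, and the kidney and lung type IV chains Col4a3 and Col4a4 had 1.52 and 2.77 in the Kir2.1 experiment and 1.14 and 0.750 in the PEA experiment. A mean of at least 10 normalized counts within an experiment was required for testing. Col6a6 and Col19a1 did not reach it in the Kir2.1 experiment, and Col4a3, Col4a4 and Col19a1 did not in the PEA experiment, which left 42 and 41 collagen genes. In the PEA experiment, Col4a3 had 59.1 normalized counts in control 3 and 0.85 to 5.90 in the other mice.

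Chains that share a trimer kept near-fixed ratios per kilobase in some pairs and not in others. Type I collagen is built of 2 Col1a1 chains and 1 Col1a2 chain. In the Kir2.1 experiment, the ratio of Col1a1 to Col1a2 was 1.2 ± 0.0498 (SD, n = 3) among controls and 1.16 ± 0.0124 (SD, n = 3) with Kir2.1, although the level of Col1a1 itself differed more than 3-fold between controls 2 and 3. In the PEA experiment, the ratio was 0.250 to 0.362 in the controls and 0.356 to 0.435 in the exposed mice. The type IV chains Col4a1 and Col4a2, made in the ratio 2 to 1 in the common type IV trimer, stood at 0.651 to 0.838 in the Kir2.1 controls and 0.783 to 1.03 in the Kir2.1 mice. In the PEA experiment, they stood at 1.29 to 2.18 and 1.57 to 2.43. Of the type VI chains in the PEA experiment, Col6a3 relative to Col6a1 was 1.59 to 1.80 in the controls and 0.994 to 1.45 in the exposed mice, without overlap. Col6a1 relative to Col6a2 did not overlap there either, at 1.95 to 2.02 in the controls and 1.70 to 1.91 in the exposed mice. Nor did Col9a2 relative to Col9a1, at 0.949 to 1.36 and 1.39 to 1.91. These ratios are descriptions and were not tested. Those of the PEA experiment were not corrected for the trend with base composition described below.

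Several collagen genes sit beside each other in the genome (GRCm38 coordinates, GENCODE vM21). Col4a1 (chromosome 8, 11198423 to 11312826, minus strand) and Col4a2 (chromosome 8, 11312805 to 11449287, plus strand) are transcribed away from each other and overlap by 22 bp at their starts. Col4a4 and Col4a3 on chromosome 1 leave 71 bp between their starts, Col4a6 and Col4a5 on the X chromosome 1308 bp, and Col3a1 and Col5a2 on chromosome 1 lie end to end with 24614 bp between them. Exon overlap with genes other than collagens was at most 6.07% of exonic bases, in Col9a3, and it is a limit on the Kir2.1 values because those libraries did not keep strand. Of the 44 genes, 35 had a RefSeq promoter entry (250 bases before to 50 bases after the start), with 38 windows in all. The box CCAAT, on either strand, was in 34.2% of these windows and in 37.4% of all 32851 promoter windows. TATAAA was in 13.2% and 13.6%, and the GC box GGGCGG in 60.5% and 35.7%. The median GC content of the windows was 59.8% and 52.7%, and the GC box shares were not adjusted for it.

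Promoter windows are printed below for the abundant fibrillar genes Col3a1 and Col1a2, for Col8a1, which led the Kir2.1 comparison, and for the facing pair Col4a1 and Col4a2 (RefSeq, GRCm38.p6). Capitals mark CCAAT, its reverse complement ATTGG, and TATAAA on either strand. The Col3a1 window (chr1:45311288-45311587, plus strand) had a GC content of 37.7%, no CpG and TATAAA in capitals.
Col3a1: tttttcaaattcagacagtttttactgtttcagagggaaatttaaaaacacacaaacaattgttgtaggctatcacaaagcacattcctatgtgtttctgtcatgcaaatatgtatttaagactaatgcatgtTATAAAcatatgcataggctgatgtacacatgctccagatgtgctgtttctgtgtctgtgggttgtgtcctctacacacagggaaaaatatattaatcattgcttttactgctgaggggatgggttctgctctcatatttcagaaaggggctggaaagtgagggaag
The Col1a2 window (chr6:4505368-4505667, plus strand) had 61.0% GC and 13 CpG, with CCAAT once on each strand.
Col1a2: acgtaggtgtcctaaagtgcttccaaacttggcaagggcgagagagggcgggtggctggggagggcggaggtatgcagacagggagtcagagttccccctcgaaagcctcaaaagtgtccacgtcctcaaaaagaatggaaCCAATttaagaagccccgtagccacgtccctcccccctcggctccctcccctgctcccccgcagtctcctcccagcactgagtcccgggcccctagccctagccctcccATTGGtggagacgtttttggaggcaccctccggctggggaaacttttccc
The Col8a1 window (chr16:57754688-57754987, minus strand) had 60.3% GC and 12 CpG and held none of the marked motifs.
Col8a1: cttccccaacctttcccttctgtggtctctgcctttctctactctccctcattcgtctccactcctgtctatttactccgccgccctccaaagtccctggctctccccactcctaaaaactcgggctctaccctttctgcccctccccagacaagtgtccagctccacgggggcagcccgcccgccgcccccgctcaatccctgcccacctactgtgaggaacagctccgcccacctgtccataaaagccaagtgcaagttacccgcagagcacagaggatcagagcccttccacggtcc
The Col4a1 window (chr8:11312777-11313076, minus strand) had 74.0% GC and 37 CpG, and the Col4a2 window (chr8:11312555-11312854, plus strand) 73.7% GC and 33 CpG. They share 78 bases, from 11312777 to 11312854, read on opposite strands.
Col4a1: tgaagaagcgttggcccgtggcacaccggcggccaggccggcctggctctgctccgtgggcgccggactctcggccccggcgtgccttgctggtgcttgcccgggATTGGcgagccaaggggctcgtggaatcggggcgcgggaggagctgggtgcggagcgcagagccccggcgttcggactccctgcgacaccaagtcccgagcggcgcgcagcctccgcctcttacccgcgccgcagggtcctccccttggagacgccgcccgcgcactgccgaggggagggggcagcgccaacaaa
Col4a2: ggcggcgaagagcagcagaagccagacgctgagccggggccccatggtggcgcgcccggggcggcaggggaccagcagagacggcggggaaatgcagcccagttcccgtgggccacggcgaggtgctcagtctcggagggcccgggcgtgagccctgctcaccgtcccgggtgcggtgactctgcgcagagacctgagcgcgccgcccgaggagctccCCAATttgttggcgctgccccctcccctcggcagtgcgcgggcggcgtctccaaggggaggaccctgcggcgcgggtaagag

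No collagen gene passed the test in the Kir2.1 comparison, which asks what silencing of OSNs does to the RNA of the epithelium. The fitted log2 fold change was above 0 for nearly all collagen genes, while the mice of the groups overlapped for most of them. With limma on the log2 scale and Benjamini-Hochberg adjustment over all 19807 genes tested, 0 of 42 collagen genes had an adjusted p under 0.05, where 0.353% of all genes did (0.0757% higher and 0.278% lower in Kir2.1 mice). The smallest adjusted p was 0.147, for Col8a1. At an unadjusted p under 0.05, 16 collagen genes were higher and 0 lower in Kir2.1 mice, where 4.93% of all genes were higher and 6.2% lower. The log2 fold change was above 0 for 40 of 42 collagen genes and below 0 for 2, against 51.2% and 48.8% of all genes. Every Kir2.1 mouse lay above every control for 13 collagen genes and below for 0, against 7.26% and 9.04% of all genes. The median log2 fold change was 0.46 over the collagen genes and 0.01 over all genes. Collagen genes share cells of origin and mice, so these counts are not 42 separate observations. The p-values measure the spread between these mice, and with 3 against 3 the exact two-sided permutation test of a single gene cannot go below 0.1.

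**Figure D2:**
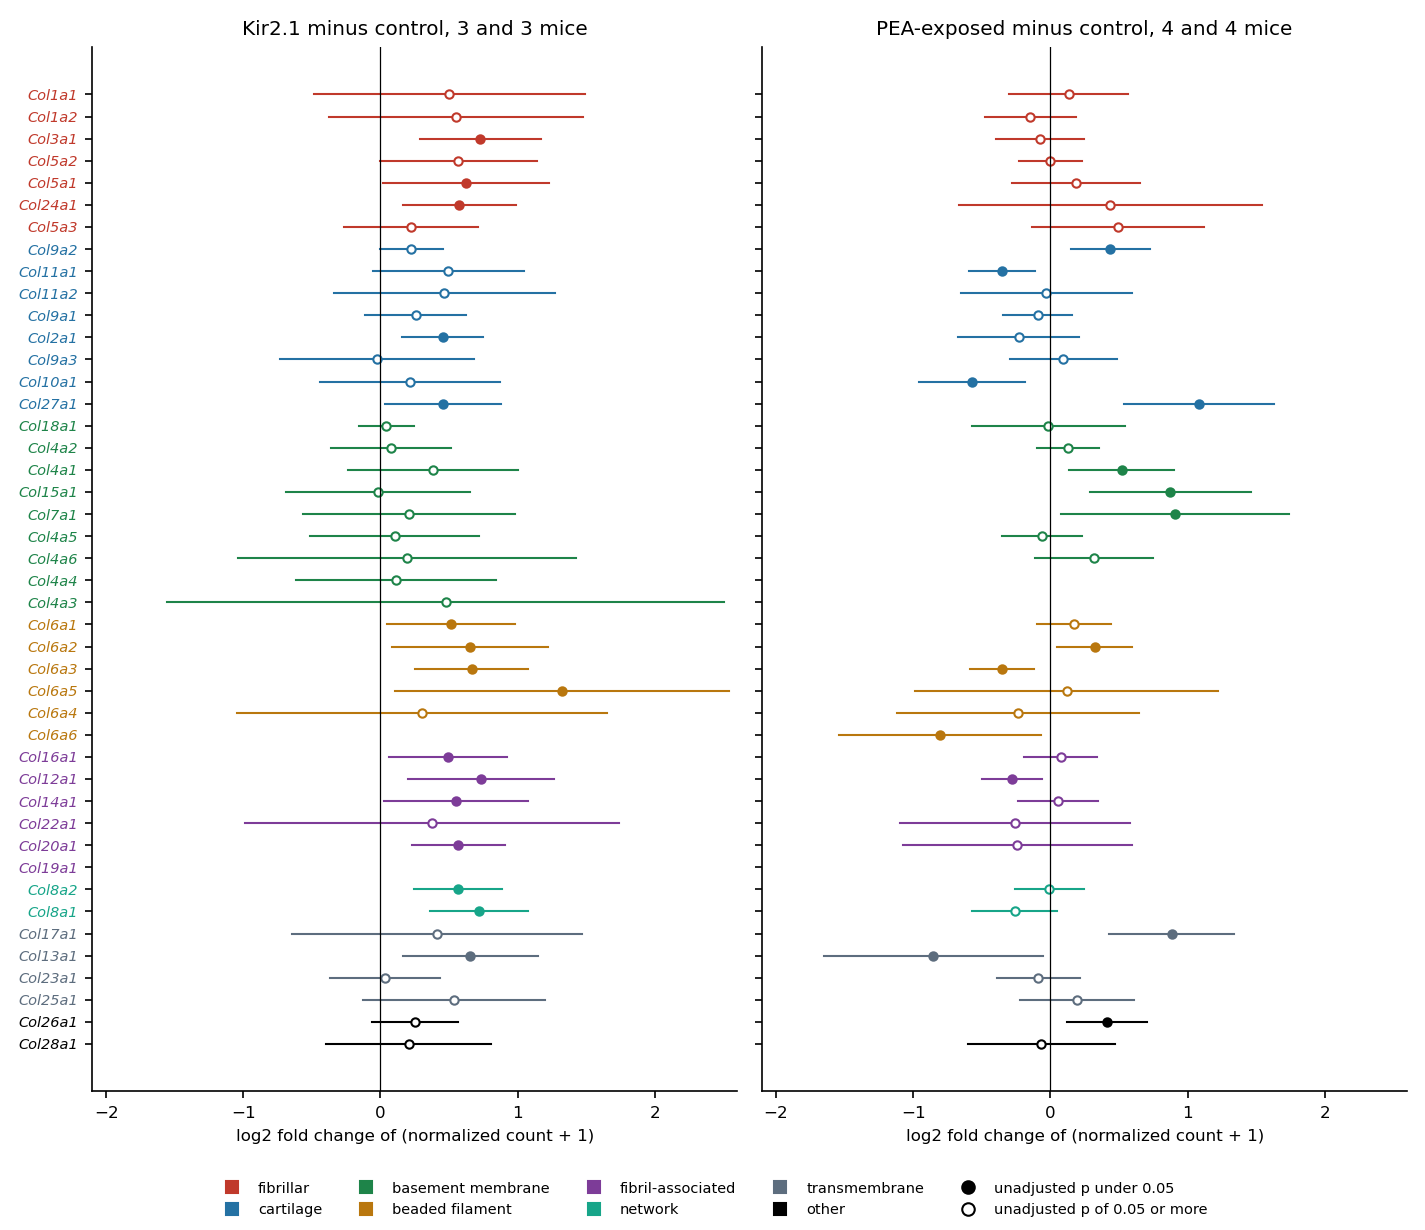
Log2 fold change of (normalized count + 1) for each tested collagen gene, as points with 95% confidence intervals from limma, for Kir2.1 minus control (left) and PEA-exposed minus control (right). Filled points have an unadjusted p under 0.05, all 16 of them right of 0 on the left, and 8 right and 6 left of 0 on the right.

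The highest-ranked genes were the pair of type VIII chains, which form hexagonal sheets in vessel walls and the cornea. Col8a1 had 452, 393 and 561 normalized counts in controls 1 to 3 and 763, 853 and 682 in Kir2.1 mice 1 to 3. The groups did not overlap, with a 1.64-fold higher fitted level in Kir2.1 mice (log2 fold change 0.72, SE 0.15, limma adjusted p = 0.147). Col8a2 had 1288, 1313 and 1635 in the controls and 2349, 2146 and 1778 in the Kir2.1 mice. Here too each Kir2.1 mouse was above each control, by 0.56 on the log2 scale (SE 0.14, limma adjusted p = 0.189).

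Among the 7 fibrillar genes, the log2 fold change was above 0 for all 7, with a median of 0.57, and 3 of them had an unadjusted p under 0.05. The median was 0.34 without control 2 and 0.89 without control 3. Col3a1 had 14618, 10745 and 17655 normalized counts in the controls and 27420, 21325 and 21583 in the Kir2.1 mice. Every Kir2.1 mouse was higher than every control, and the log2 fold change was 0.73 (SE 0.19, 95% interval 0.29 to 1.17, limma adjusted p = 0.213). Col24a1, a minor fibrillar chain of developing bone, also had groups that did not overlap, with 199, 150 and 151 in the controls and 210, 282 and 254 in the Kir2.1 mice. Col5a1, whose type V chains set the diameter of type I fibrils, had a log2 fold change of 0.62 (SE 0.26), and its partner Col5a2 had 0.57 (SE 0.24), with overlapping groups.

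The type I chains were dominated by control 3. Col1a1 had 35176, 28190 and 94178 normalized counts in the controls and 62108, 78350 and 54675 in the Kir2.1 mice. Col1a2 followed the same order, with 27138, 21642 and 67522 in the controls and 48645, 60199 and 42752 in the Kir2.1 mice. For both genes control 3 was the highest of all 6 mice and controls 1 and 2 the lowest, so the groups overlapped. The log2 fold change was 0.50 for Col1a1 (SE 0.42, limma adjusted p = 0.745) and 0.55 for Col1a2 (SE 0.39, limma adjusted p = 0.693). Without control 3 it was 1.03 for Col1a1 and 1.05 for Col1a2, with limma adjusted p of 0.118 and 0.106. Without control 2, the lowest control for both, it was 0.16 and 0.22.

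**Figure D3:**
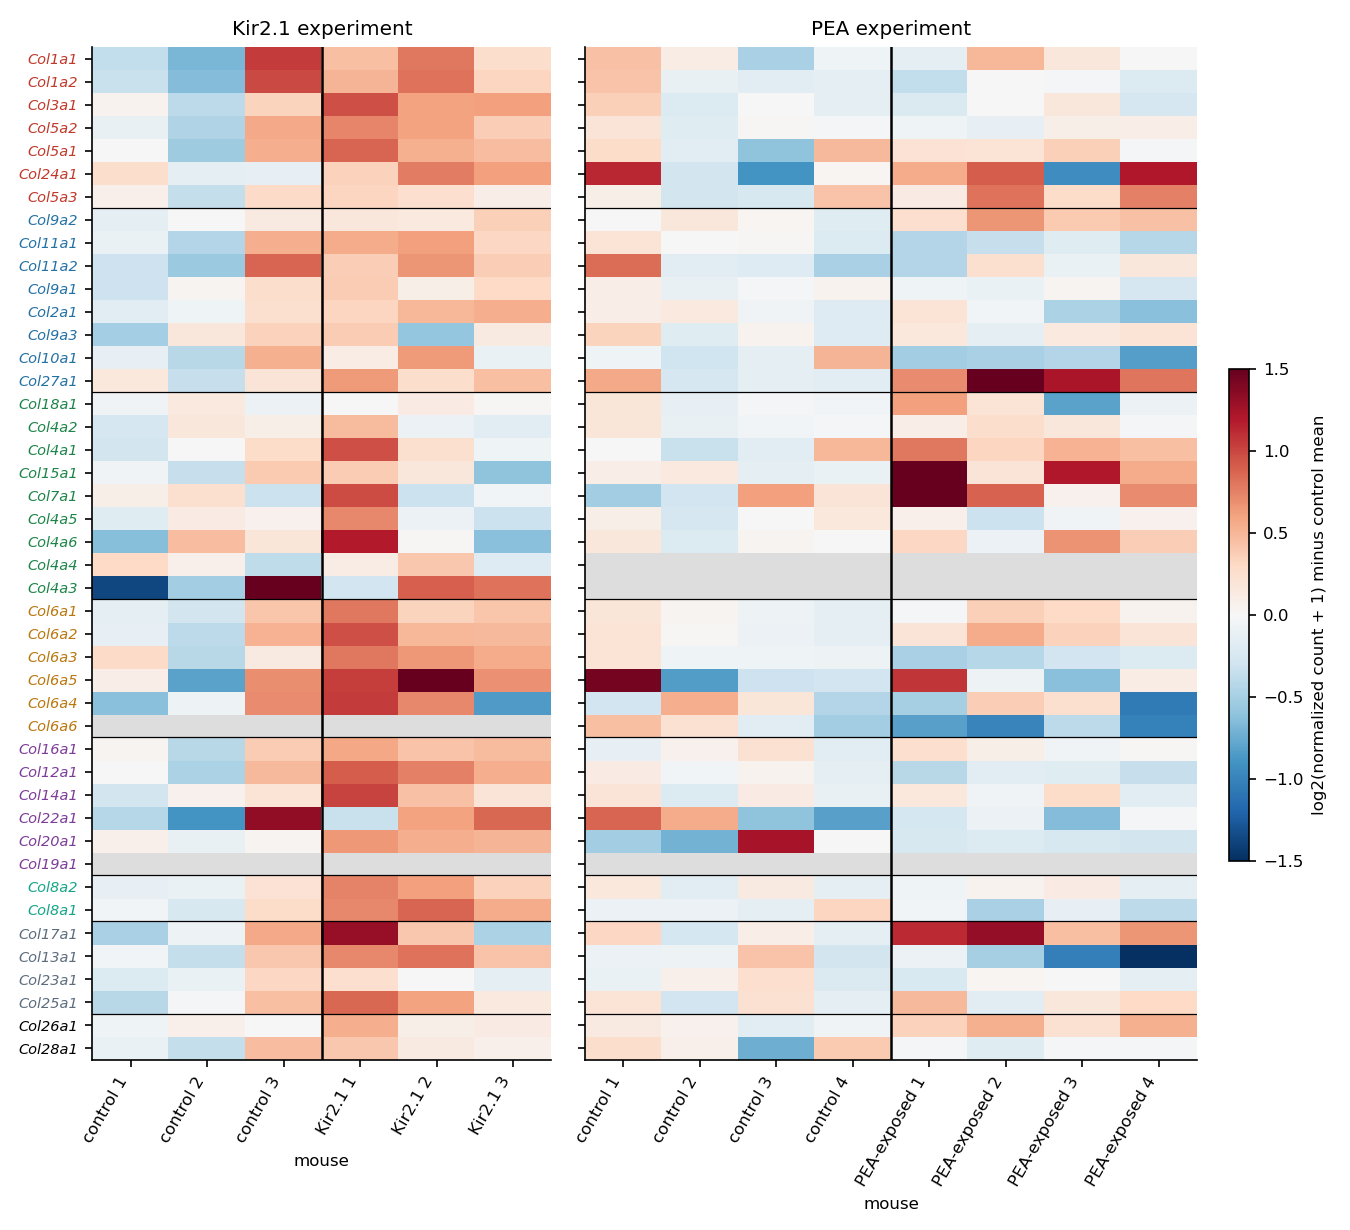
Log2(normalized count + 1) of each collagen gene in each mouse minus the mean of the controls, with red above and blue below that mean, colours saturated at 1.5 and untested genes in grey. In the left panel the 3 Kir2.1 columns are mostly red, and so is the column of control 3 for the type I chains, and in the right panel both colours occur in the exposed columns.

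Of the 8 cartilage genes, 7 had a log2 fold change above 0, with a median of 0.35 (0.23 without control 1), and 2 had an unadjusted p under 0.05. Col2a1, the main fibril chain of hyaline cartilage, had 802, 869 and 1066 normalized counts in the controls and 1129, 1278 and 1323 in the Kir2.1 mice. The groups did not overlap, and the log2 fold change was 0.45 (SE 0.12, limma adjusted p = 0.241). Col27a1, a fibrillar chain of the growth plate, had 283, 200 and 290 in the controls and 397, 306 and 347 in the Kir2.1 mice, again with no overlap (log2 fold change 0.45, SE 0.18). Among the type IX chains, which decorate type II fibrils, Col9a2 did not overlap between groups but the others did, and Col9a3 was the 1 cartilage gene below 0, at -0.03. Col11a1 and Col11a2, which nucleate type II fibrils, had log2 fold changes of 0.49 (SE 0.23) and 0.47 (SE 0.34), and Col10a1, made by hypertrophic chondrocytes, had 0.21 (SE 0.28). Control 3 was above both other controls for each of these last 3 genes.

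The basement membrane genes had the smallest median of the groups. Of 9 genes, 8 had a log2 fold change above 0, but the median was 0.11, none had an unadjusted p under 0.05, and no gene had groups that did not overlap. Col4a1 had 2333, 2812 and 3428 normalized counts in the controls and 5527, 3331 and 2702 in the Kir2.1 mice. Col4a2 had 3159, 4211 and 3990 in the controls and 5244, 3535 and 3366 in the Kir2.1 mice. For both chains Kir2.1 mouse 1 was the highest of the 6 mice and the other 2 Kir2.1 mice lay among the controls. The log2 fold change was 0.38 for Col4a1 (95% interval -0.24 to 1.00) and 0.08 for Col4a2 (95% interval -0.36 to 0.52). Col18a1, a proteoglycan of basement membranes, had 2908 to 3434 in the controls and 3076 to 3386 in the Kir2.1 mice, with a log2 fold change of 0.04 and the narrow 95% interval of -0.16 to 0.25. Kir2.1 mouse 1 was also the highest of the Kir2.1 mice for Col15a1 and for Col7a1 (897 against 364 and 442), which makes the anchoring fibrils under stratified epithelia. In the same mouse the summed markers of horizontal basal cells, the cells that sit on the epithelial basement membrane, reached 6870, against 3420 to 5189 in the other 5 mice. Its endothelial markers summed to 2600 against 1487 to 1867 in the other 5 mice. Their part in the result was not tested. The median of the basement membrane genes was -0.12 without Kir2.1 mouse 1, 0.01 without control 1, 0.20 without Kir2.1 mouse 2 and 0.31 without Kir2.1 mouse 3.

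The type VI and fibril-associated collagens had median log2 fold changes of 0.65 and 0.55, with 4 of 5 tested genes in each group higher at an unadjusted p under 0.05. Type VI chains form beaded filaments around cells. Col6a3 had 4070, 2507 and 3674 normalized counts in the controls and 5777, 5270 and 4921 in the Kir2.1 mice. These did not overlap (log2 fold change 0.67, SE 0.18, limma adjusted p = 0.222). Col6a1 and Col6a2 had log2 fold changes of 0.51 (SE 0.20) and 0.65 (SE 0.24), with control 3 within the range of the Kir2.1 mice for both. The largest log2 fold change of any collagen gene, 1.32 (SE 0.52), was that of the scarce Col6a5, which had 15.1 to 44.4 in the controls and 44.1 to 133 in the Kir2.1 mice. Col12a1 had 4097, 2959 and 5751 in the controls and 7695, 6936 and 6017 in the Kir2.1 mice. The groups were apart, by 0.73 on the log2 scale (SE 0.23, limma adjusted p = 0.295). Col20a1 had 102, 89.1 and 99.5 against 152, 142 and 138, which left a gap between the groups. Col16a1 also had groups that were apart, and Col14a1 and Col22a1 did not. Of the 4 transmembrane collagens, Col13a1, found at neuromuscular and other cell contacts, had 210, 169 and 287 against 357, 383 and 293. Col17a1, the hemidesmosome collagen of basal epithelial cells, was highest in Kir2.1 mouse 1 at 1587, and the other Kir2.1 mice had 848 and 463 against 459 to 949 in the controls.

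The count of 16 genes depended on single mice. Without Kir2.1 mouse 1 it was 9, without control 1 it was 9, without control 2 it was 8, and without control 3 it was 25, all higher in Kir2.1 mice in each case. In the same 4 fits 3.09%, 3.67%, 3.24% and 6.03% of all genes were higher. The median log2 fold change of the collagen genes was 0.28 without control 2 and 0.66 without control 3. No collagen gene passed the adjusted test in any of these fits, and the smallest adjusted p by limma was 0.0902, without control 3. Control 1 also had a mean level of 6.06 on the log2 scale over 92 receptor genes of the vomeronasal organ, a sense organ in the septum, against 2.42 to 2.51 in the other 5 mice. These receptor genes were kept for a mean of at least 10 over all mice, control 1 included, so its high level helped to choose them. Without control 1 the log2 fold change was above 0 for 35 of 42 genes, and without Kir2.1 mouse 1 for 33.

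**Figure D4:**
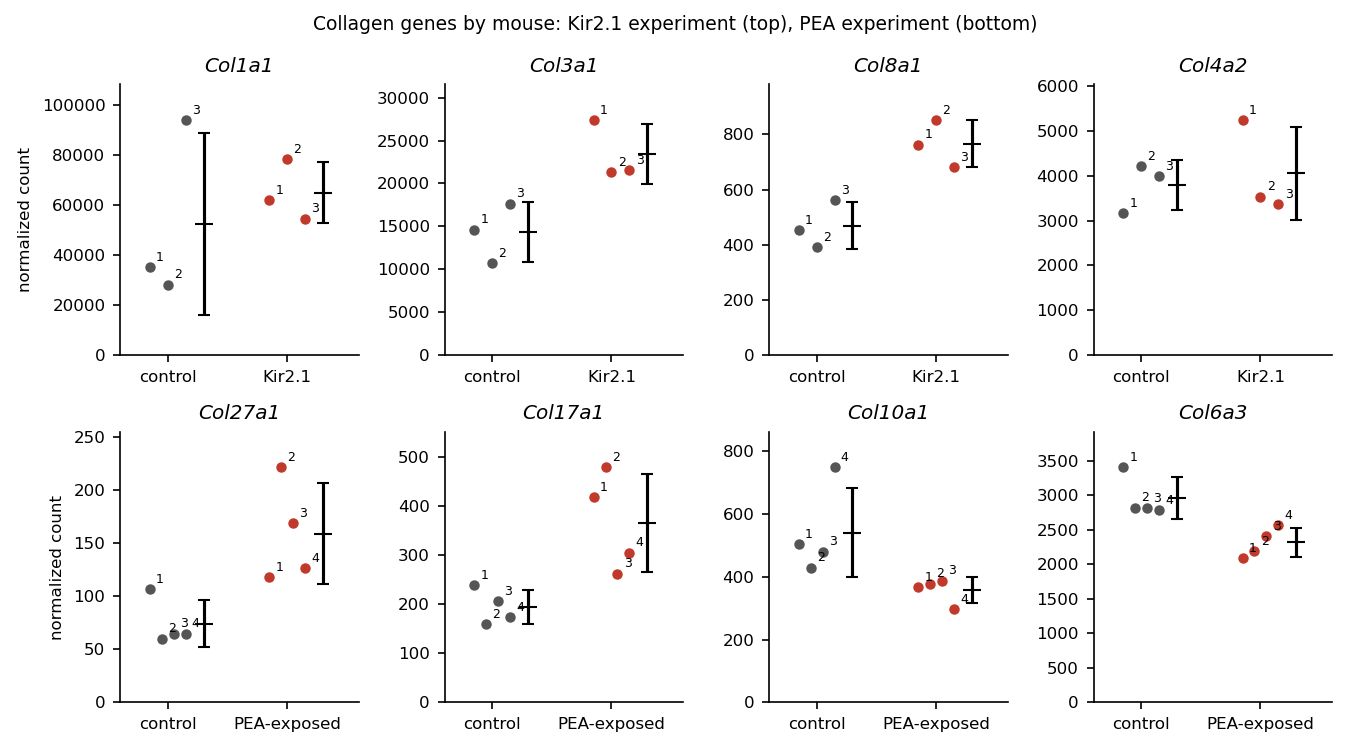
Normalized counts by mouse (numbered points) with group mean and SD (bars) for 4 collagen genes of the Kir2.1 experiment (top) and 4 of the PEA experiment (bottom). Col3a1 and Col8a1 do not overlap between groups, control 3 alone reaches 94178 for Col1a1, and Col27a1, Col17a1, Col10a1 and Col6a3 do not overlap in the PEA experiment.

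None of the genes listed as making, modifying, binding or degrading collagen passed the adjusted test, and most of their log2 fold changes were above 0 in the Kir2.1 comparison. Of 32 tested genes of collagen synthesis and crosslinking, 13 were above and 2 below the controls at an unadjusted p under 0.05, with a median log2 fold change of 0.29. The counts here and in the lists that follow stand against 4.93% of all genes higher and 6.2% lower. The leading members were Pcolce, the enhancer of procollagen C-proteinase, at 0.68 (SE 0.12, limma adjusted p = 0.0871), and P3h4, a partner of the lysyl hydroxylases, at 1.12 (SE 0.20, limma adjusted p = 0.0873). P3h4 had 772, 437 and 584 normalized counts in the controls and 1350, 1308 and 1157 in the Kir2.1 mice. Among 10 genes of collagen degradation 4 were higher, led by Mmp2, a gelatinase, at 0.53 and the inhibitor Timp3 at 0.32. Among 8 collagen receptors 4 were higher, led by the discoidin receptor Ddr2 at 0.64 and the integrin chain Itga10 at 0.50. Among 14 small proteoglycans and glycoproteins of fibrils 8 were higher, led by Ogn at 0.49 and Aspn at 0.68. Of 15 laminins, nidogens and other basement membrane partners, 5 were higher, led by the laminin chain Lama1 at 0.98 and Nid1 at 0.59. The 2 genes that lay lower at this level, Pcolce2 and Mia3, are both in the synthesis list and are named after their values were seen.

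No marker of connective tissue or bone cells passed the adjusted test in the Kir2.1 comparison, and 1 marker of mature OSNs did. The summed fibroblast markers were 2332 to 2730 in the controls and 2910 to 3678 in the Kir2.1 mice, led by Prrx1, and 2 of 8 were higher at an unadjusted p under 0.05. The chondrocyte sum was 1625 to 1997 and 2110 to 2588, with 1 of 5 tested genes higher, the cartilage proteoglycan gene Acan, while the cartilage markers Matn1, Matn3 and Snorc were under the test's minimum. The pericyte and smooth muscle sum was 27479 to 31582 and 33313 to 34479, with 4 of 6 higher, led by Acta2 and Tagln. The osteoblast sum overlapped, at 4749 to 14702 and 9792 to 11702, and 2 of 8 were higher, Sp7 and Runx2. The osteoclast sum overlapped too, at 1856 to 5033 and 3679 to 4588, with 0 of 5 at that level. Sp7, a transcription factor of osteoblasts, had 233, 577 and 283 in the controls and 1994, 773 and 1174 in the Kir2.1 mice. The mature OSN sum was 109998 to 124029 in the controls and 80447 to 91996 in the Kir2.1 mice. All 7 OSN markers were lower at an unadjusted p under 0.05, and 1 of them, Omp, fell at an adjusted p of 0.0466 by limma, by 0.60 on the log2 scale. The part of these markers in the collagen result was not tested.

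In the PEA comparison, which asks what continuous exposure to an odor does, collagen genes had values on both sides of 0 and none passed the test. By limma, 0 of 41 collagen genes had an adjusted p under 0.05, against 0.179% of the 17322 genes tested (0.144% higher and 0.0346% lower in exposed mice), and the smallest adjusted p was 0.111, for Col27a1. At an unadjusted p under 0.05, 8 collagen genes were higher and 6 lower in the exposed mice, against 8.93% and 6.04% of all genes. All 4 exposed mice exceeded all 4 controls for 5 collagen genes and lay under them for 3, against 5.46% and 3.86% of all genes. The log2 fold change was above 0 for 20 collagen genes and below 0 for 21, against 46.5% and 53.5% of all genes. With 4 against 4, the smallest exact two-sided permutation p is 0.0286, and the 8 genes whose groups did not overlap had it, before any correction for the 41 genes.

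Fold changes in this experiment moved with base composition. Over all genes with a mean of at least 100, the median log2 fold change ran from -0.15 in the eighth of genes with the lowest transcript GC content (31.0% to 41.5%) to 0.28 in the eighth with the highest (56.0% to 69.4%). In the Kir2.1 experiment the same medians were 0.01 and -0.003. The 44 collagen genes had transcript GC contents from 45.9% to 62.9%. Exposed mouse 2 departed most, by 0.35 in the highest eighth. The main PEA results are therefore given also with the GC trend of each mouse subtracted, an alternative chosen after the data were seen. Under it 3 collagen genes were higher and 9 lower at an unadjusted p under 0.05, against 5.9% and 4.38% of all genes, and 9 of the 14 genes of the uncorrected fit were among them.

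**Figure D5:**
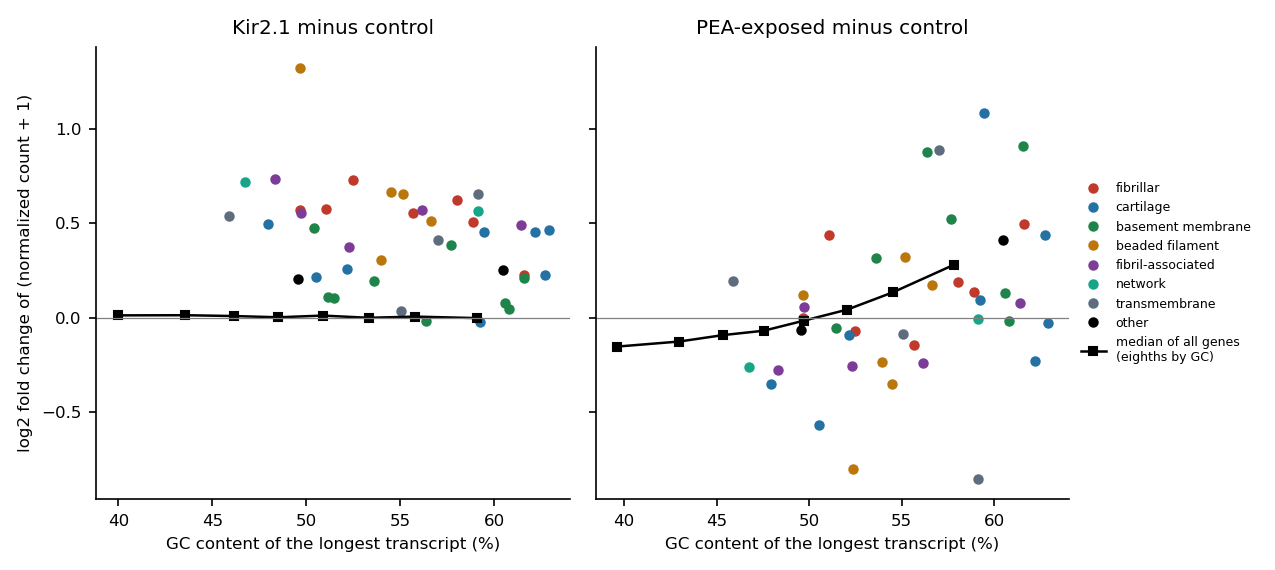
Log2 fold change against GC content of the longest transcript (%), for each tested collagen gene (coloured points) and as medians of all genes with a mean of at least 100 in eighths by GC content (black squares). The black line stays near 0 in the Kir2.1 experiment (left) and climbs from -0.15 to 0.28 in the PEA experiment (right).

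Among the cartilage genes the exposed mice had values in both directions, 2 higher and 2 lower at an unadjusted p under 0.05, with a median log2 fold change of -0.06. With the GC trend subtracted there were 1 higher and 3 lower, with a median of -0.26, and the added lower gene was Col2a1, whose log2 fold change went from -0.23 to -0.62 (SE 0.20). Col27a1 had 107, 59.98, 64.6 and 64.6 normalized counts in controls 1 to 4 and 118, 221, 169 and 127 in exposed mice 1 to 4. Every exposed mouse was above every control, and the fitted level was 2.12-fold higher (log2 fold change 1.08, SE 0.25, limma adjusted p = 0.111). With the GC trend subtracted the log2 fold change was 0.77 (SE 0.22). Col10a1 had 502, 429, 480 and 748 in the controls and 366, 378, 387 and 296 in the exposed mice. The exposed mice were all below the controls, by a log2 fold change of -0.57 (SE 0.17, limma adjusted p = 0.181) and of -0.58 with the GC trend subtracted. Col11a1 had 2963, 2557, 2597 and 2227 against 1893, 2016, 2263 and 1915, and exposed mouse 3 lay just above control 4 (log2 fold change -0.35, SE 0.11). Col9a2 had 208, 235, 214 and 185 against 250.4, 333, 275 and 285, without overlap, at a log2 fold change of 0.44 that came to 0.04 with the GC trend subtracted. The cartilage markers of the list that passed the minimum did not differ at an unadjusted p under 0.05, with chondrocyte sums of 983 to 1030 in controls and 854 to 1020 in exposed mice, and Snorc was listed at 0 in all 8 mice. With the GC trend subtracted, 1 of these 5 markers, Acan, was lower, at -0.34 (SE 0.12).

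The basement membrane genes had the highest group median, 0.32, with 3 of 7 tested genes higher at an unadjusted p under 0.05. With the GC trend subtracted the median was 0.21 and 1 of the 7, Col15a1, was higher at that level. Col15a1, a collagen at the outer face of basement membranes, had 168, 175, 142 and 147 normalized counts in the controls and 468, 179, 362 and 231 in the exposed mice. Exposed mouse 2 was close to the controls and the other 3 were well above (log2 fold change 0.88, SE 0.26, limma adjusted p = 0.179), and the difference was 0.66 with the GC trend subtracted. Col4a1 had 1292, 1034, 1167 and 1838 against 2244, 1623, 1870 and 1776. Control 4 lay among the exposed mice, and the log2 fold change of 0.52 (SE 0.17) came to 0.26 with the GC trend subtracted. Its partner Col4a2 had 953, 782, 818 and 822 against 902, 1007, 948 and 834, with log2 fold changes of 0.13 (95% interval -0.10 to 0.36) without and -0.22 with the subtraction. Col7a1 had 85.5 to 188 in the controls and 128 to 485 under exposure (log2 fold change 0.91, SE 0.38), and with the subtraction the difference was 0.54 (SE 0.41). Col17a1, of the hemidesmosome, had 239, 159, 206 and 175 against 418, 480, 262 and 305. All 4 exposed mice exceeded all 4 controls, by 0.88 on the log2 scale (SE 0.21, limma adjusted p = 0.116) and by 0.65 with the GC trend subtracted. Of the 3 markers of horizontal basal cells, the keratins Krt5 and Krt14 had log2 fold changes of 0.63 and 0.62 (limma adjusted p of 0.142 and 0.108), while the transcription factor gene Trp63 had 265 to 384 in the controls and 286 to 344 in the exposed mice. The 3 markers summed to 698 to 845 in the controls and 922 to 1103 in the exposed mice. Their part in the result was not tested.

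Fibrillar genes had overlapping groups throughout, with 0 of 7 at an unadjusted p under 0.05 before the GC trend was subtracted. Col3a1 had 14803, 10028, 11475 and 10489 normalized counts in the controls and 9923, 11585, 13029 and 9723 in the exposed mice, and its log2 fold change of -0.07 had a 95% interval of -0.39 to 0.25. Col1a2 had 14144, 9772, 9335 and 9484 against 8157, 10594, 10348 and 9089, with control 1 alone above the rest (log2 fold change -0.15, 95% interval -0.48 to 0.18). Col1a1 had 4921, 3919, 2584 and 3458 against 3278, 5105, 4083 and 3651, with a log2 fold change of 0.13 (95% interval -0.30 to 0.57). With the GC trend subtracted, the log2 fold change was -0.33 (SE 0.13) for Col1a2, the 1 fibrillar gene of 7 with an unadjusted p under 0.05 in that fit, -0.17 (SE 0.16) for Col1a1 and -0.14 (SE 0.13) for Col3a1, and the group median went from 0.13 to -0.09. A difference of the size fitted for Col3a1 in the Kir2.1 experiment, 0.73, lies outside the uncorrected interval of Col3a1 here, but the 2 experiments were not tested against each other.

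Among the remaining collagens, Col6a3 and Col12a1 had lower values in the exposed mice. Col6a3 had 3411, 2822, 2811 and 2792 normalized counts in the controls and 2096, 2193, 2415 and 2566 in the exposed mice. The groups did not overlap (log2 fold change -0.35, SE 0.10, limma adjusted p = 0.173), and with the GC trend subtracted it was -0.49. Col12a1 had 12122, 10804, 11569 and 10167 against 8358, 9902, 9853 and 8743, also without overlap (log2 fold change -0.28, SE 0.10). Control 1 was the highest control for both, and without it the log2 fold change was -0.28 for Col6a3 and -0.24 for Col12a1. Col13a1 and Col6a6 were low, at 11.1 to 56.2 and 8.49 to 25.3 over all 8 mice, with log2 fold changes of -0.85 (SE 0.36) and -0.80 (SE 0.33). Col6a2, at 0.32, and Col26a1, a collagen of developing gonads, at 0.41, were higher at an unadjusted p under 0.05, and came to 0.16 and 0.07 with the GC trend subtracted, no longer at that level. The type VIII chains, which led the Kir2.1 comparison, had log2 fold changes of -0.26 (Col8a1) and -0.01 (Col8a2), and of -0.19 and -0.32 with the GC trend subtracted, the latter at an unadjusted limma p under 0.05.

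Other matrix genes in the PEA experiment also lay on both sides, none of the lists had a gene past the adjusted test, and the counts that follow are at an unadjusted p under 0.05. At that level 8.93% of all genes were higher and 6.04% lower, and 5.9% and 4.38% with the GC trend subtracted. Of 13 small proteoglycans and glycoproteins of fibrils, 5 lay below the controls and 0 above at that level, led by Postn at -0.55 and Lum at -0.41, but with the GC trend subtracted 0 lay below and 1 above (Postn -0.37, Lum -0.27). Of 10 degradation genes 3 were lower, led by the collagenase Mmp13 at -0.73 and the gelatinase Mmp9 at -0.63, and with the subtraction 4 were lower (Mmp13 -0.58, Mmp9 -0.80). Of 15 basement membrane partners 4 were higher, led by Lama1 at 0.72 and the perlecan gene Hspg2 at 0.63, and of 31 synthesis genes 3 were higher, led by the lysyl hydroxylase Plod3 at 0.61 and Bmp1, the procollagen C-proteinase, at 0.46. With the GC trend subtracted, 1 basement membrane partner was higher, and in the synthesis list 3 were higher and 4 lower. The lower ones were Crtap (-0.47), P3h1 (-0.43), Fkbp10 (-0.38) and P3h3 (-0.34), which act in the modification and folding of collagen chains. Of 8 receptors 1 was higher, the epithelial discoidin receptor Ddr1, at 0.67. In that fit Lama1 was at 0.60, Hspg2 at 0.28, Plod3 at 0.35, Bmp1 at 0.24, Ddr1 at 0.35, Krt5 at 0.40 and Krt14 at 0.38. Osteoblast markers summed to 1343 to 3247 in the controls, the highest in control 1, and 1110 to 1226 in the exposed mice, and 2 of 8 were lower, Ibsp at -1.37 and Bglap at -0.86. The fibroblast sums overlapped, at 1671 to 2207 and 1673 to 2099, and the mature OSN sums did too, at 26938 to 30064 and 25909 to 31450. Of the vomeronasal receptor genes, 119 had a mean of at least 10 over all mice, so mice with high levels helped to choose them. Their mean level was 3.92 to 5.76 on the log2 scale in controls 1 to 3 and 1.44 in control 4. It was 5.32 in exposed mouse 1 and 1.43 to 1.71 in the other exposed mice. The part of these genes in the collagen values was not tested. With 1 mouse left out at a time, 11 to 13 collagen genes had an unadjusted p under 0.05, where 11.1% to 16.9% of all genes did. No collagen gene passed the adjusted test in these fits.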

How the data were processed

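RNA-seq data of olfactory epithelium from 14 samples at postnatal day 5 were used, 6 in the Kir2.1 experiment and 8 in the PEA experiment. The deposited values are a signal, normalized counts per gene, which the authors made by quantifying reads with Salmon 1.3.0 against Ensembl 100 (GRCm38, mm10), summing them per gene with tximport 1.18.0 and scaling each experiment separately with DESeq2 1.30.0 (bcl2fastq 2.18 for the reads). Kir2.1 libraries were poly-A selected without strand (40 bp) and PEA libraries ribosomal-RNA-depleted with strand (150 bp), all single-end. The library type was stated as stranded for every sample. Raw counts were not used here, so no count model could be fitted, depth is unknown and no counting interval is given.

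Values were transformed as log2(value + 1), so fold changes of low genes are understated. Genes with a mean of at least 10 in an experiment were tested with limma 3.58.1 (R 4.3.3) with a mean-variance trend, each experiment on its own, with 2-sided p-values and Benjamini-Hochberg adjustment over all genes tested at 0.05. Single genes were also compared by the exact permutation test. The procedure was tested on simulated data with the means and spread of each experiment. With no change put in, 0 genes were called at an adjusted p under 0.05. With 200 genes changed by 1 on the log2 scale, 51% were recovered in the Kir2.1 experiment and 64% in the PEA experiment. In these runs 4 and 14 unchanged genes were called as well. Changes below 1 were not simulated, so a gene that did not pass may still differ. Gene positions and transcript lengths came from GENCODE vM21, which held all 44 genes, and promoters from RefSeq GRCm38.p6. Tables and plots used Python 3.11.15, numpy 2.4.6, pandas 2.3.3 and matplotlib 3.10.9.

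The collagen genes, their groups and the other gene lists were chosen with earlier results of these data known. Genes named with values were the 3 highest per kilobase in the fibrillar, cartilage and basement membrane groups of each experiment, the 10 with the smallest p-value in each, chains of the same trimers and, in other lists, those past the adjusted test or else the 2 with the smallest p-value. Any other gene named was chosen after its values were seen. Other pseudocounts, filters, variance models, scalings, a replicate block and leaving out each mouse were tried, and a GC correction was added after the data were seen (transcript GC known for 97.9% and 98.2% of genes tested). Replicate numbers were not taken as pairs in the main fits.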

Additional observations from a re-analysis of the deposited data

Results flagged for a closer look

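In 8 of the 84 groups of 4 PEA mice checked, over collagen genes and the summed collagen share, 1 mouse stood apart from the other 3 by Dixon's gap criterion at the 95% level, which chance meets in about 1 group of 20. The 84 groups reuse the same mice and genes that vary together, so they are not separate trials to set against that rate. Genes other than collagens were not checked, so the flags cannot be called particular to collagens. Groups of 3 in the Kir2.1 experiment were not checked. PEA control 1 was the mouse in 6 of the 8, each time above the others. It had 158.9 normalized counts of Col11a2 against 63.1 to 79.2, 14144 of Col1a2 against 9335 to 9772, 106.7 of Col27a1 against 59.98 to 64.6, 3411 of Col6a3 against 2792 to 2822, and 99.0 of Col6a5 against 19.7 to 29.2. Collagen genes summed to 0.543% of its normalized counts against 0.440% to 0.457% in the other controls. The type VIII chain Col8a1 was high in PEA control 4, at 1221 against 885 to 924, and Col28a1, a collagen of peripheral nerve, was low in exposed mouse 2, at 61.3 against 68.2 to 69.0, a small gap within a narrow group. The cause of these values was not tested.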

How the results depend on the processing

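No collagen gene passed an adjusted p of 0.05 under any alternative run, nor 0.10 in the fits with all mice. The collagen counts were unchanged by median centring, while it moved the share of all genes higher and lower at an unadjusted p under 0.05 to 3.91% and 7.44% in the Kir2.1 experiment and to 6.96% and 9.18% in the PEA experiment. In the Kir2.1 experiment, the count of 16 genes at an unadjusted p under 0.05 was 9 without the variance trend, where 10.7% of all genes were at that level. It ran from 8 (without control 2) to 25 (without control 3) when a mouse was left out, where 7.92% and 11.8% of all genes were. For the PEA comparison the GC correction moved the median log2 fold change of all collagen genes to -0.15 and of the cartilage genes to -0.26, and, among the genes named by rule, turned the sign of Col1a1 (-0.17), Col4a2 (-0.22), Col6a1 (-0.055) and Col9a3 (-0.22). Quantile normalization turned Col3a1 (0.0052) and Col8a2 (0.032). Leaving out a mouse changed the size of Kir2.1 values without turning them, from 0.16 to 1.03 for Col1a1, 0.22 to 1.05 for Col1a2, 0.19 to 0.90 for Col11a2, 0.0051 to 0.48 for Col10a1 and 0.088 to 0.60 for Col4a1. Other genes changed sign. The ranges in the Kir2.1 experiment were -0.21 to 0.28 for Col15a1, -0.035 to 0.85 for Col17a1, -0.0018 to 0.12 for Col18a1, -0.12 to 0.20 for Col4a2, -0.21 to 0.31 for Col4a5 and -0.28 to 0.25 for Col9a3. Those in the PEA experiment were -0.19 to 0.25 for Col11a2, -0.23 to 0.25 for Col18a1, -0.029 to 0.28 for Col1a1, -0.48 to 0.17 for Col20a1, -0.16 to 0.045 for Col3a1, -0.14 to 0.030 for Col4a5 and -0.063 to 0.046 for Col8a2. The cause of these changes was not tested.

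With the replicate number as a block, 15 collagen genes of the Kir2.1 experiment and 12 of the PEA experiment had an unadjusted p under 0.05. The shares of all genes at that level were 10.6% and 13.7%. No collagen gene passed the adjusted test. Correlations of same-numbered mice were -0.06 to 0.16 in the Kir2.1 experiment and -0.05 to 0.14 in the PEA experiment, so the numbers do not establish pairs.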
